A study of Mus musculus with 7 samples.

Results

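Birc2 encodes c-IAP1, an inhibitor of apoptosis protein (IAP) that acts as a ubiquitin ligase, and it is described here together with 9 genes around it: the IAPs Birc3, Birc6 and Xiap, the adaptors Traf2 and Traf3, the kinases Map3k14 and Chuk, and the transcription factors Nfkb2 and Relb. These 10 genes were picked by name out of 22880 in the table, Birc2 because of its own difference between mutant and control mice and the others as its partners and relatives, so the mutant and control levels that follow are a description of them and carry no p-value. RNA was measured by poly-A selected, stranded mRNA sequencing in optic nerves at postnatal day 14 (P14), 1 sample being both nerves of 1 mouse. The 4 control samples (CT) came from FASN lox/lox mice without Cre, and the 3 mutant samples (cMU) from olig2cre FASN lox/lox mice, in which Cre under Olig2 regulatory elements recombines the floxed fatty acid synthase gene in the oligodendrocyte (OL) lineage. All 7 mice carried the floxed allele and are labelled C57Bl/6, although the floxed line was of mixed 129X1/SvJ, C57BL/6 and DBA origin before it was backcrossed. Only the mutants carried Cre, so that the presence of Cre and the loss of Fasn cannot be told apart.

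The non-canonical NF-κB pathway is held off in resting cells by a complex in which TRAF3 brings the kinase NIK, the product of Map3k14, to TRAF2 and the c-IAPs, which mark NIK for degradation. When a receptor such as the lymphotoxin β receptor, CD40, BAFF receptor or Fn14 takes up TRAF2, TRAF3 and the c-IAPs, NIK builds up and activates IKKα, the product of Chuk, which leads to processing of the Nfkb2 precursor so that its mature form enters the nucleus with RelB. The c-IAPs also attach ubiquitin chains to RIPK1 at TNF receptor 1, which favors canonical NF-κB signaling and cell survival over cell death. In white matter, receptors of this family are found on OLs, astrocytes, microglia and vessels, and the optic nerve holds all of these cell types.

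Birc2 and its closest relative Birc3, which encodes c-IAP2, lie side by side on the minus strand of chromosome 9 (GRCm38), Birc2 (ENSMUSG00000057367) at chr9:7818227-7837064 and Birc3 at chr9:7848699-7873186. Because such a pair can share reads, the longest run of bases common to their annotated transcripts was looked up in GENCODE M21 on GRCm38. It measured 114 bases, lay within the coding sequence of both genes, in exon 5 of a Birc2 transcript at chr9:7821098-7821211 and in exon 4 of a Birc3 transcript at chr9:7854491-7854604, and is shown because it is the stretch in which a read could not be assigned by sequence. It reads as follows on the coding strand.
Birc2 and Birc3: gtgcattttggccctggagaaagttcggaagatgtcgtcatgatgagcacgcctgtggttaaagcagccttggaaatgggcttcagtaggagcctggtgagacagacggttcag
None of the 4510 windows of 125 bases in the Birc2 transcripts, the length of an untrimmed read, was found in a Birc3 transcript. At 50 bases, 65 of 4579 Birc2 windows were shared, which is 1.42% of the Birc2 windows and 1.28% of the 5079 Birc3 windows. Trimmed reads from this stretch could therefore have been split between the genes by the estimation of RSEM.

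Values are given as FPKM, fragments scaled by gene length and by library size. Comparisons between different genes rest on the deposited gene widths, which were not checked. Between 27452222 and 43462575 reads per sample were assigned to genes. Fasn, the targeted gene, stood at 205 ± 25.1 FPKM (SD, n = 4) in CT and 56.3 ± 11.3 (n = 3) in cMU, that is at 27.5% of the control level (adjusted p = 0.00312, limma-trend with Benjamini-Hochberg adjustment over 13866 genes). Of the lists of cell type markers, the summed FPKM of 8 mature OL genes ran from 30887 to 32967 in CT and from 22539 to 29560 in cMU, and that of 7 genes of newly formed OLs from 832 to 932 and from 613 to 753. The summed level of 6 astrocyte genes ran from 2432 to 2780 in CT and from 3089 to 3714 in cMU. In the same fit, 1 of 8 mature OL genes (Mag), 2 of 7 genes of newly formed OLs (Tmem2 and Rras2) and 1 of 6 genes of OL progenitors (Cspg4) fell. Of 6 astrocyte genes, 3 rose (Aldh1l1, Gja1 and Aldoc). Over all genes, 1.36% were called lower and 1.26% higher. On recovered reads, edgeR called 1 mature OL, 2 newly formed OL, 2 progenitor and 3 astrocyte genes, and DESeq2 called 3, 5, 3 and 5. None of the genes of microglia (7), endothelial cells (6), meningeal fibroblasts (6) and neurons (6) passed with limma-trend. At an unadjusted p under 0.05 (limma-trend) there were 3, 3, 3 and 1 of these, beside 3387 of all 13866 genes. For these lists, edgeR on recovered reads called 0 in each, and DESeq2 called 2 endothelial and 1 meningeal gene. Over all genes, edgeR called 163 higher and 238 lower, and DESeq2 933 and 775. None of the markers was at 0 in all samples. How far such shifts take part in the values of the 10 genes was not tested.

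By FPKM, Birc2 was the highest of the 10 genes in CT. Its FPKM was 39.9, 41.7, 43.3 and 37.6 in the 4 CT samples and 24.2, 23.2 and 24.2 in the 3 cMU samples. The groups did not overlap, and the lowest control stood well above the highest mutant. The mean went from 40.6 ± 2.45 FPKM (SD, n = 4) to 23.9 ± 0.578 (n = 3), 58.7% of the control level, with a log2 difference of -0.75 (SE 0.065) on the scale of log2(FPKM + 0.5). These values rested on 2401 to 3838 reads per CT sample and 1352 to 1766 per cMU sample, so that counting error alone gave a coefficient of variation of 1.75% in CT and 2.56% in cMU, beside 6.03% and 2.42% observed. The mutant values were thus no further apart than counting error alone would give. Of the 13866 genes tested, 28 had a lower log2 difference than Birc2. In bulk samples such as these, fewer cells of a type that expresses Birc2 and less Birc2 RNA per cell cannot be told apart.

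Birc3, whose protein can take the place of c-IAP1 in the complex with TRAF2, was much less abundant and leaned the other way. It had 4.69, 3.32, 4.36 and 3.91 FPKM in CT and 6.19, 5.20 and 4.50 in cMU. The groups overlapped, because the lowest mutant sample lay below the highest control. The means were 4.07 ± 0.595 (n = 4) and 5.30 ± 0.848 (n = 3), a log2 difference of 0.34 (SE 0.139), from 188 to 339 reads per sample.

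Xiap and Birc6 are the relatives that do not belong to the TRAF2 complex. Xiap, on chrX:42067836-42109656, encodes the direct caspase inhibitor of the family and measured 24.3, 21.2, 22.5 and 21.5 FPKM in CT and 23.1, 23.6 and 24.8 in cMU, with a log2 difference of 0.09 (SE 0.0682). Birc6, on chr17:74528295-74703356, encodes a very large protein that joins an IAP repeat to a ubiquitin-conjugating domain, and measured 34.3, 27.3, 30.1 and 32.1 FPKM in CT and 33.6, 30.1 and 31.9 in cMU, with a log2 difference of 0.05 (SE 0.0851). Both genes overlapped between the groups, and the sign for Birc6 turned under other scalings of the samples. Among the 4 IAP genes, Birc2 was thus the one whose groups did not overlap.

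**Figure D1:**
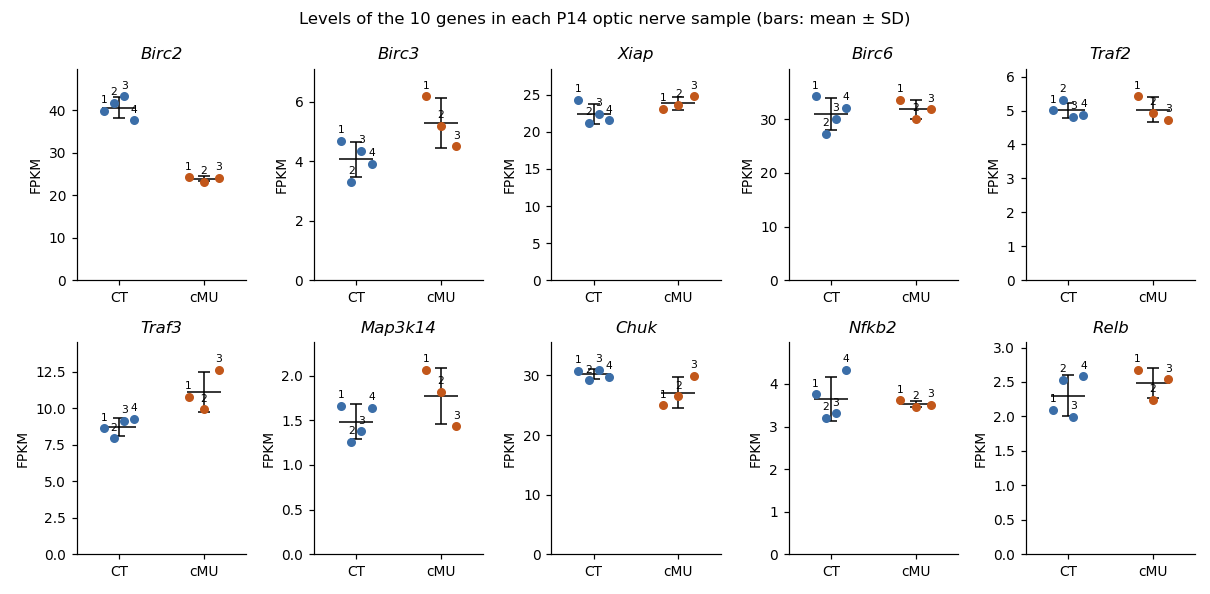
FPKM (vertical axes, from 0, a scale for each gene) of the 10 genes in the 4 CT and 3 cMU samples, 1 point per mouse with its sample number and bars for the mean ± SD. Birc2 (37.6 to 43.3 against 23.2 to 24.2) and Traf3 (7.93 to 9.26 against 9.94 to 12.6) are the genes whose groups do not overlap. The same holds for 21.1% of all genes tested.

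The balance of the IAP transcripts within a sample followed from these values. Birc2 exceeded Birc3 by a factor of 10.2 ± 1.72 in CT (8.51 to 12.6, n = 4) and of 4.58 ± 0.734 in cMU (3.91 to 5.37, n = 3). Since Birc3 contributed little, the sum of both c-IAP transcripts was still lower in every mutant, at 28.4 to 30.4 FPKM against 41.5 to 47.7 in CT. The share of Birc2 in this sum was 90.9% ± 1.30 in CT and 81.9% ± 2.33 in cMU. Against Xiap, Birc2 stood at 1.82 ± 0.152 in CT and at 1.00 ± 0.0416 in cMU. The FPKM of Birc2 and Xiap, which are apart in every control, were thus similar in the mutants. The size of a ratio between genes depends on their deposited widths. All of these ratios contain Birc2 and add no separate evidence on it.

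**Figure D2:**
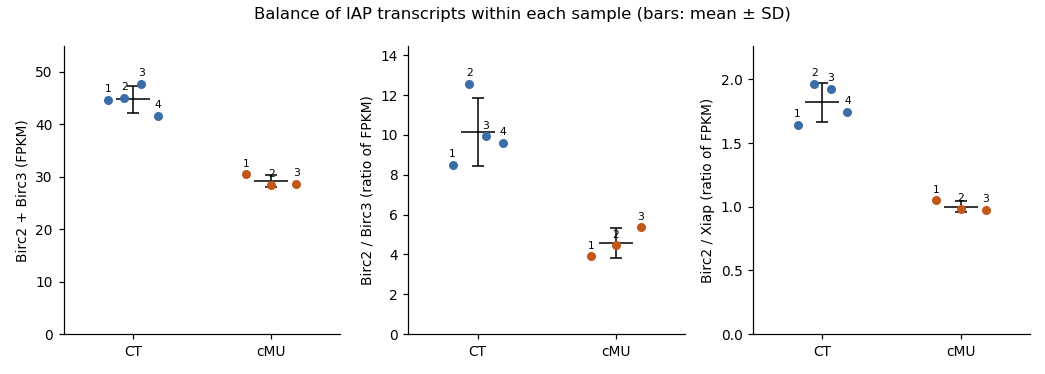
Sum of Birc2 and Birc3 in FPKM (left) and the ratios of Birc2 to Birc3 (middle) and to Xiap (right) within each sample, 1 point per mouse with its number and bars for the mean ± SD. In all panels the cMU points lie below the CT points, at 29.2 against 44.7 FPKM, 4.58 against 10.2 and 1.00 against 1.82 on average.

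Among the adaptors, Traf3 was higher in every mutant, whereas the groups overlapped for Traf2. Traf3 (chr12:111166370-111267153), the docking protein for NIK, had 8.62, 7.93, 9.14 and 9.26 FPKM in CT and 10.8, 9.94 and 12.6 in cMU. No control reached the lowest mutant, and the means were 8.74 ± 0.605 (n = 4) and 11.1 ± 1.37 (n = 3), a log2 difference of 0.33 (SE 0.0985). On the opposite strand the gene overlaps 4930595D18Rik, which is listed at 0 in all samples. Traf2 (chr2:25517982-25546940), which bridges TRAF3 and the c-IAPs, had 5.01, 5.32, 4.81 and 4.88 FPKM in CT and 5.42, 4.93 and 4.72 in cMU. Its log2 difference was 0.0041 (SE 0.0878), and its sign turned under 8 of 17 other settings. The ratio of Traf3 to Traf2 was 1.75 ± 0.194 in CT (1.49 to 1.90) and 2.23 ± 0.389 in cMU (1.99 to 2.67). The ratio of Traf3 to Birc2 was 0.216 ± 0.0231 and 0.465 ± 0.0501.

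Map3k14, the kinase gene at the center of the pathway, was the least abundant of the 10, and the SE of its difference was the largest of the 10. At chr11:103219762-103267472, it measured 1.66, 1.26, 1.38 and 1.64 FPKM in CT and 2.06, 1.82 and 1.43 in cMU. Its groups overlapped, with a log2 difference of 0.19 (SE 0.140). Chuk (chr19:44073335-44107480), which encodes the kinase downstream of NIK, measured 30.8, 29.2, 30.9 and 29.8 FPKM in CT and 25.0, 26.5 and 30.0 in cMU. Of its mutant samples, cMU1 and cMU2 lay below all controls and cMU3 among them, and the log2 difference was -0.15 (SE 0.0725). After Birc2 this was the lowest of the 10 differences.

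The transcription factor genes at the end of the pathway overlapped between the groups. Nfkb2 (chr19:46304737-46312090) had 3.75, 3.21, 3.31 and 4.33 FPKM in CT and 3.62, 3.46 and 3.50 in cMU, with a log2 difference of -0.03 (SE 0.114), whose sign turned when control sample 4 was left out (0.04). Relb (chr7:19606217-19629438) had 2.09, 2.53, 2.00 and 2.58 FPKM in CT and 2.67, 2.24 and 2.54 in cMU, with a log2 difference of 0.10 (SE 0.121). Mutant values of both genes lay within the range of the controls, except for 1 Relb value just above it. Nfkb2 overlaps Psd on the opposite strand, which averaged 1.88 FPKM in CT and 2.48 in cMU. RNA levels say nothing on the processing of the Nfkb2 protein or on the stability of NIK, the steps at which this pathway is mainly controlled.

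Nfkb2 and Relb are themselves textbook targets of NF-κB, so the promoters of the 10 genes were searched for the decameric κB consensus on both strands. The windows, from RefSeq on GRCm38.p6, covered 250 bases before and 50 after each annotated start, and 9 of the 10 genes had 1 or more (14 windows), Relb having none. The motif was in 4 of the 14 windows, those of Traf3 and Nfkb2, beside 1480 of 32851 windows of all genes (4.51%). All of them but the Traf3 window belong to Nfkb2, and some of these overlap, so the count is of windows rather than of genes. For each window the first match is shown, with any match that overlaps it, in capitals with 8 bases on each side on the strand of the gene. They are shown because they belong to the adaptor that was higher in every mutant and to a gene whose groups overlapped.
Traf3 at chr12:111166352-111166377 (+): cggcccgcGGGGATTTCCagcgcgcg
Nfkb2 at chr19:46304690-46304716 (+): atcgtcacGGGAATTCCCCccctcggg
Nfkb2 at chr19:46305451-46305476 (+): cgacggcaGGAATGTCCCcacaaaag
Nfkb2 at chr19:46305697-46305722 (+): gtattttcGGGACTTTCCtaagcagc
In the first Nfkb2 stretch the capitals join overlapping matches. The Birc2 and Birc3 windows held no match, which says only that these letters are not in the windows. A match is a description of the sequence, and whether any of these stretches was bound in the optic nerve was not measured.

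In the fit across all genes, 1 of the 10 genes passed the threshold of 0.05 on the adjusted p, Birc2, beside 2.62% of the 13866 genes tested (175 higher and 188 lower, or 117 and 283 with each sample centered on its median, and 103 and 267 on normalized counts). Among genes tested, 1.36% were called lower and 1.26% higher. Because Birc2 was chosen for this contrast, nothing is read from its count. The groups did not overlap for 2 of the 10 genes, Birc2 and Traf3, beside 21.1% of all genes (12.9% higher and 8.26% lower in cMU), which is close to the share among the 10. All 10 genes passed the filter on low values. The median log2 difference of the 10 was 0.07, and 0.09 without Birc2, beside 0.05 over all genes.

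**Figure D3:**
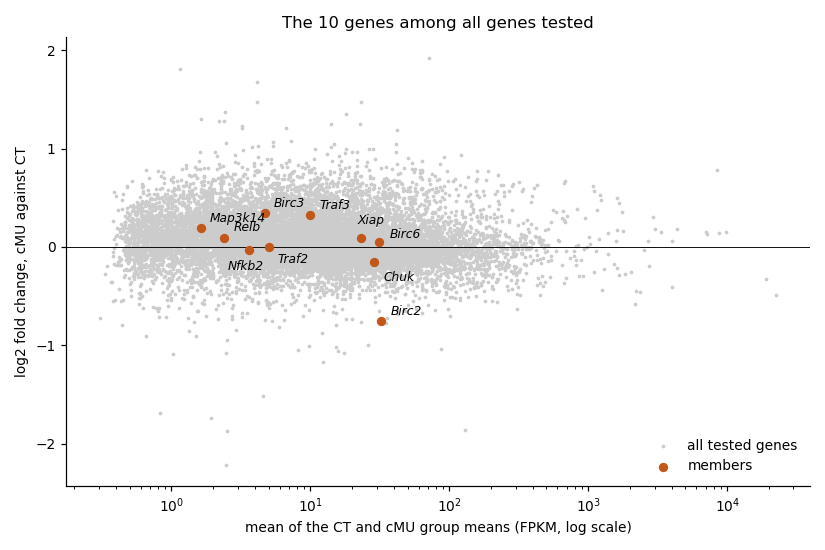
Log2 difference between cMU and CT (vertical axis) against the mean of the group means in FPKM (horizontal, log scale) for 13866 genes (gray) and the 10 genes (orange). Birc2, at -0.75, stands apart from the other members, which lie between -0.15 and 0.34.

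In CT, the order of levels was Birc2 (40.6 FPKM), Birc6 (30.9), Chuk (30.2), Xiap (22.4), Traf3 (8.74), Traf2 (5.01), Birc3 (4.07), Nfkb2 (3.65), Relb (2.30) and Map3k14 (1.48). Neighbors in this order had ranges that did not overlap, except for Birc6 and Chuk and for Birc3 and Nfkb2. In cMU, Birc2 came after Birc6 (31.9 FPKM) and Chuk (27.1), and its range overlapped that of Xiap. In both groups, Birc2, Birc6, Chuk and Xiap had the 4 highest FPKM of the genes and Map3k14 the lowest. This order rests on the deposited widths, such as 2038 bases for Birc2, 4832 for Birc6 and 5381 for Xiap. These widths were not checked, so the order of transcript numbers may differ.

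The genes whose levels followed those of Birc2 most closely were taken from all 13866 by Pearson's r with Birc2 on the scale of log2(FPKM + 0.5). Over 7 samples that fall into a CT and a cMU cluster, r mainly orders genes by how cleanly they separate the groups, and it is given without a p. The 5 genes with the highest r were Il23a (0.998), which encodes a subunit of the cytokine IL-23, Gpr176 (0.997), an orphan G protein-coupled receptor, Tada1 (0.996), a subunit of the SAGA coactivator complex, Tmem101 (0.991) and Chst3 (0.991), a chondroitin sulfotransferase. Il23a had 19.3, 22.1, 22.5 and 18.2 FPKM in CT and 9.86, 9.59 and 10.1 in cMU. Like Gpr176, it shared with Birc2 the full order of the controls, with sample 3 highest, then samples 2, 1 and 4. In Tada1 and Tmem101, samples 2 and 3 also lay above samples 1 and 4. The mutants had a narrow range in all 5 genes. Such likeness follows from the choice by r over the same samples and is no separate evidence. The log2 difference of Il23a was -1.017, larger in size than that of Birc2, whereas those of the other 4 were smaller. Gpr176 went from 8.17 ± 0.717 FPKM to 4.68 ± 0.155 (-0.74) and Chst3 from 13.8 ± 0.452 to 9.53 ± 0.0981 (-0.51). Tada1 went from 37.3 ± 0.824 to 30.3 ± 0.232 (-0.30) and Tmem101 from 17.9 ± 0.519 to 15.0 ± 0.164 (-0.24).

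The neighborhood of Birc2 was examined because Birc2 and Birc3 lie next to each other and had differences of opposite sign. Distances were taken between the lower coordinates of the genes, which on the minus strand are where a gene ends. Within 500 kb of Birc2 by this measure, the table lists 17 other genes, of which 7 passed the filter. Of these, 2 (28.6%, beside 2.62% of all genes) passed the threshold of limma-trend, 1 in each direction. Tmem123, which encodes a transmembrane mucin-like receptor and lies at chr9:7764041-7794333, had 76.4, 74.2, 70.3 and 68.4 FPKM in CT and 52.4, 60.6 and 53.3 in cMU. It fell by 0.38 on the log2 scale (SE 0.0710, adjusted p = 0.0345 with limma-trend). Yap1, which encodes a transcriptional coactivator of the Hippo pathway and lies at chr9:7931999-8004596, had 18.3, 16.0, 17.3 and 17.5 FPKM in CT and 29.9, 22.2 and 23.0 in cMU. It rose by 0.51 (SE 0.106, adjusted p = 0.0451 with limma-trend). Both calls were close to the threshold: when 1 sample was left out, they held only without cMU2, and the adjusted p (limma-trend) ran from 0.0570 to 0.114 for Tmem123 and from 0.0566 to 0.131 for Yap1 without any of the other 6. Birc3, between Birc2 and Yap1, was described above. The remaining genes tested were Cep126 (log2 difference -0.13), Gm10709 (-0.08), Mmp12 (0.13) and 9230110C19Rik (0.13), none of which passed, and the matrix metalloproteinase genes around Mmp12 were too low to test.

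**Figure D4:**
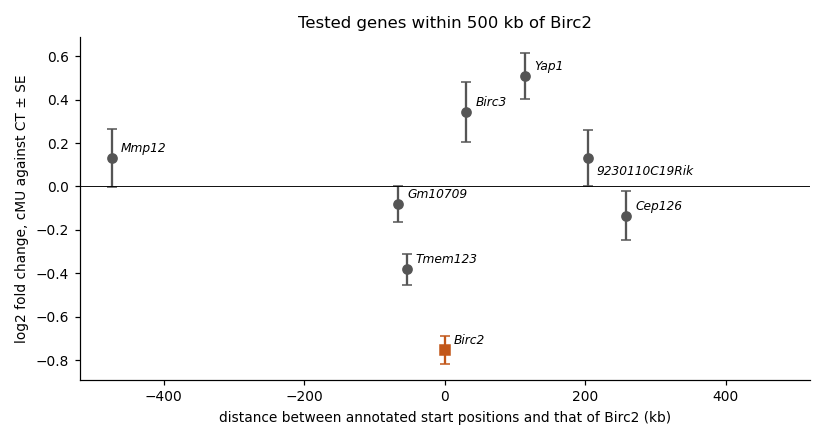
Log2 difference between cMU and CT with its SE (vertical axis) for Birc2 (square) and the 7 tested genes within 500 kb. Genes are placed by the distance between their lower coordinates in kb (horizontal axis, labelled as start positions). Tmem123 (-0.38) lies below 0 on one side of Birc2, and Birc3 (0.34) and Yap1 (0.51) lie above it on the other.

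The rest of the pathway was read from 6 lists that hold 76 genes without the 10, of which 60 passed the filter. With limma-trend, 1 of these 60 rose (Tnfsf12) and 1 fell (Traf4), 3.33% beside 2.62% of all genes, and the groups did not overlap for 16 (26.7% beside 21.1%). The median log2 difference of the 60 was 0.05, the same as over all genes. The calls of both genes were narrow: Tnfsf12 lost its call without any sample but cMU2 (adjusted p of 0.0552 to 0.121 with limma-trend) and Traf4 without any of the 7 (0.0643 to 0.145).

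Among ligands and receptors of the non-canonical pathway, 7 of 13 genes passed the filter, 1 rose and none fell, with a median of 0.25. Tnfsf12, which encodes TWEAK, the ligand of Fn14, had 7.93, 8.13, 7.71 and 8.86 FPKM in CT and 11.99, 10.5 and 11.2 in cMU. It rose by 0.44 on the log2 scale (SE 0.0816, adjusted p = 0.0348 with limma-trend), and no control reached a mutant. Tnfsfm13, a readthrough gene of Tnfsf12 and Tnfsf13 on the same strand, went from 4.26 ± 0.400 FPKM to 5.53 ± 1.01 (log2 difference 0.33, adjusted p = 0.154), so the division of reads between the pair is uncertain. The receptor for TWEAK, Tnfrsf12a, overlapped between the groups, at 5.91 ± 0.793 FPKM in CT and 5.85 ± 0.464 in cMU (log2 difference -0.0076, SE 0.112). Ltbr, the lymphotoxin β receptor and the most abundant of the list, had 30.2, 27.5, 32.9 and 33.7 FPKM in CT and 46.0, 29.9 and 38.9 in cMU, a difference of 0.28 (SE 0.136, adjusted p = 0.241 with limma-trend) that rested on cMU1 and cMU3 and passed without cMU2 (0.44, adjusted p = 0.0476). Tnfrsf1b, the gene of TNF receptor 2, which was singled out after its values were seen, did not overlap between groups, at 4.39 to 4.65 FPKM in CT and 5.37 to 5.92 in cMU, with a difference of 0.31 (adjusted p = 0.0775, limma-trend). Cd40, Tnfrsf11a and Tnfrsf13c were low and overlapped between the groups, and the lymphotoxin genes Lta and Ltb, Tnfsf11, Tnfsf13b, Tnfsf14 and Cd40lg were below it.

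Among the other TRAF adaptors and the regulators of NIK turnover, all 10 genes were tested, and with limma-trend none rose and 1 fell, beside 1.26% and 1.36% of all genes. On recovered reads, edgeR called 2 (beside 163 higher and 238 lower of 13866 genes) and DESeq2 called 3 (beside 933 higher and 775 lower). The 3 most abundant were each lower in every mutant, as were 8.26% of all genes. Traf4, another adaptor of the family, had 39.7, 38.9, 47.7 and 49.9 FPKM in CT and 29.6, 28.9 and 34.6 in cMU. It fell by 0.49 on the log2 scale (SE 0.107, adjusted p = 0.0493 with limma-trend). Otud7b, which encodes a deubiquitinase that removes ubiquitin chains from TRAF3, had 79.5, 77.8, 77.2 and 70.6 FPKM in CT and 55.6, 66.9 and 56.1 in cMU, a difference of -0.36 (SE 0.0799, adjusted p = 0.0536 with limma-trend). Peli1, which encodes a ubiquitin ligase with NIK among its known substrates, had 65.1, 55.3, 53.0 and 48.5 FPKM in CT and 36.8, 44.1 and 38.2 in cMU, a difference of -0.47 (SE 0.105, adjusted p = 0.0532). Neither Otud7b nor Peli1 passed, and both did with the sample number as a block (adjusted p = 0.0365 and 0.0314, limma-trend), without cMU2 (0.0252 and 0.0365) and with DESeq2 on recovered reads (0.0042 and 0.0014). Peli1 also passed with edgeR (0.0471), with centered samples (0.0487) and on normalized counts (0.0473). Traf5, singled out after its values were seen, was the one gene of the list higher in every mutant, at 1.56 to 1.74 FPKM in CT and 1.94 to 2.51 in cMU (0.41, adjusted p = 0.0923). Traf1, Traf6, Tank, Tbk1, Siah2 and Zfp91 overlapped between the groups.

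Among the other IAPs and the antagonists of IAPs, 8 of 11 genes passed the filter, with a median of -0.09. None was called by limma-trend, edgeR or DESeq2. At an unadjusted p under 0.05 there were 2, beside 3387 of all 13866 genes in limma-trend. The 3 most abundant genes of this list are the antagonists Sept4 and Diablo and the ligase gene Arel1, and the groups of all 3 overlapped. Sept4, whose ARTS product binds XIAP, measured 450 ± 19.3 FPKM in CT and 412 ± 57.9 in cMU (-0.14, adjusted p = 0.401 with limma-trend), and Diablo, the mitochondrial Smac protein that displaces IAPs from caspases, 34.3 ± 2.30 and 31.9 ± 0.639 (-0.10, adjusted p = 0.399). Arel1, a ubiquitin ligase for IAP antagonists, measured 59.1 ± 3.06 and 55.6 ± 2.89 FPKM (-0.09). Birc5, the gene of the mitotic protein survivin, was low and was lower in every mutant, at 2.05 to 2.67 FPKM in CT and 1.69 to 1.77 in cMU, without passing (-0.29, adjusted p = 0.173, limma-trend); it was singled out after its values were seen. The Naip genes Naip1, Naip5 and Naip6 were below the filter.

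Of the canonical IKK, NF-κB and IκB genes, 10 of 11 passed the filter, with a median of 0.13. None was called by limma-trend, and 3 had an unadjusted p under 0.05, beside 3387 of all 13866 genes. On recovered reads, edgeR called 0 and DESeq2 called 2, Nfkbia and Nfkbib, beside 933 higher and 775 lower of all genes in DESeq2. The IκB genes Nfkbia and Nfkbib, whose products hold NF-κB in the cytoplasm, pointed in opposite directions. Nfkbia, itself induced by NF-κB, had 21.3, 21.02, 26.7 and 18.7 FPKM in CT and 34.7, 26.7 and 29.6 in cMU, a difference of 0.46 (SE 0.126, adjusted p = 0.0815 with limma-trend). Nfkbib had 17.4, 19.1, 20.6 and 26.2 FPKM in CT and 16.4, 14.5 and 13.9 in cMU, a difference of -0.45 (SE 0.130, adjusted p = 0.0923). Nfkbib overlaps Sirt2 on the opposite strand, which is far more abundant and fell from 2614 ± 103 to 1752 ± 167 FPKM (-0.58, adjusted p = 0.0265, limma-trend). Since the use of strand in the counting is not given in the sources used here, reads of Sirt2 in the Nfkbib value cannot be told apart. Rela, the main canonical subunit, measured 15.8 ± 1.21 FPKM in CT and 17.1 ± 0.856 in cMU (0.11, adjusted p = 0.412). Nfkbid was below the filter.

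The TNF receptor complex and its ubiquitin editing are where the c-IAPs meet RIPK1. All 17 genes of this list were tested and none was called by limma-trend. At an unadjusted p under 0.05 there were 6, beside 3387 of all 13866 genes. On recovered reads edgeR called 0 and DESeq2 called 4 (Tnfrsf1a, Ripk1, Cflar and Spata2), beside 933 higher and 775 lower of all genes in DESeq2. The groups did not overlap for 6 (35.3%, beside 21.1% of all genes), of which 4 were higher in cMU and 2 lower (beside 12.9% and 8.26% of all genes). Tnfrsf1a, the gene of TNF receptor 1, had 47.8, 39.5, 49.5 and 50.6 FPKM in CT and 82.8, 56.5 and 60.0 in cMU. The difference was 0.49 (SE 0.137, adjusted p = 0.0892 with limma-trend), with cMU1 far above the others, and it passed with the sample number as a block (adjusted p = 0.0329). Ripk1 and Cflar, singled out after their values were seen, encode the kinase ubiquitinated by the c-IAPs and the caspase-8 inhibitor c-FLIP. Ripk1 ran from 6.72 to 7.42 FPKM in CT and from 8.47 to 10.8 in cMU (0.37, adjusted p = 0.0785, limma-trend), and Cflar from 14.6 to 17.6 and from 19.04 to 23.96 (0.41, adjusted p = 0.0610, and 0.0300 with the sample number as a block). Of the other genes without overlap, Tnip1 was higher in cMU (0.17, adjusted p = 0.168, limma-trend). Tradd (-0.24, adjusted p = 0.175) and Spata2 (-0.16, adjusted p = 0.138) were lower. The remaining genes overlapped between the groups, Tab2 (0.09), the most abundant of the list, and Rbck1 (-0.09), a subunit of the linear ubiquitin ligase, among them.

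Of the 14 genes known as targets of NF-κB in other settings, 8 passed the filter, and the groups overlapped for all 8, with a median of 0.10. None was called by limma-trend, edgeR or DESeq2. At an unadjusted p under 0.05 there were 0 in limma-trend and edgeR and 1 in DESeq2, beside 3387, 3551 and 3561 of all 13866 genes. Cxcl12, a chemokine under RelB control in lymphoid stroma, measured 43.8 ± 6.05 FPKM in CT and 43.9 ± 8.59 in cMU (-0.0037, adjusted p = 0.991 with limma-trend). Vcam1, an adhesion molecule, measured 23.7 ± 3.41 and 29.0 ± 4.63 (0.29, adjusted p = 0.228), and Sod2, the mitochondrial superoxide dismutase, 15.1 ± 0.430 and 15.1 ± 0.679 (-0.0023). The classical non-canonical targets Ccl21a, Cxcl13 and Madcam1 were too low to test, as were Il6, Tnf and Cxcl1. At these levels a change of such targets was not detectable, which does not show that none took place.

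**Figure D5:**
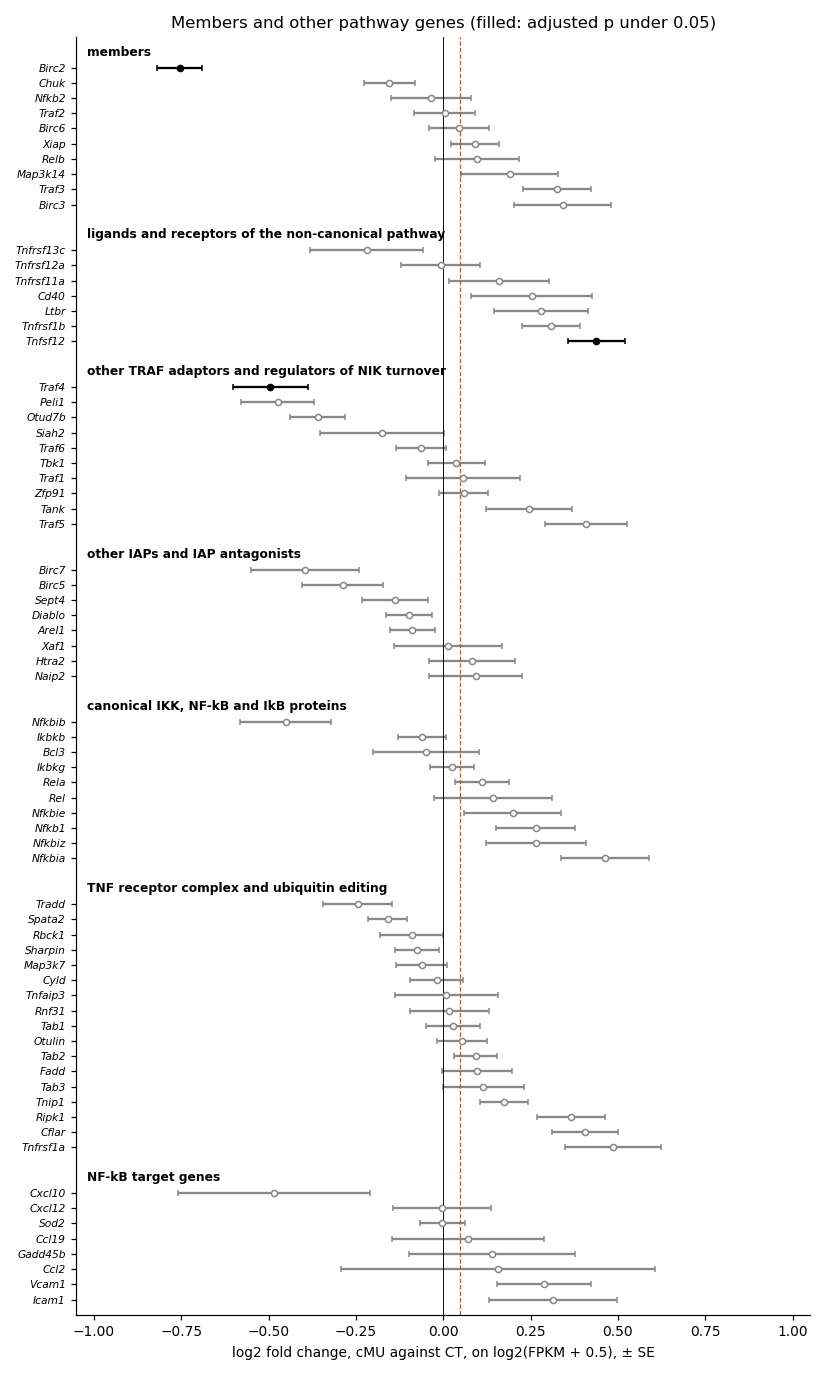
Log2 difference between cMU and CT with its SE (horizontal axis) for the 10 genes and the 60 tested genes of the 6 lists, on the scale of log2(FPKM + 0.5). Filled points passed an adjusted p of 0.05 with limma-trend and the dashed line marks the median over all 13866 genes (0.05), and apart from Birc2 only Tnfsf12 (0.44) and Traf4 (-0.49) are filled.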

How the data were processed

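The authors aligned trimmed reads with STAR 2.5.1b to GRCm38 with Ensembl annotation and estimated gene counts with RSEM 1.2.22. They deposited 1 table of 22880 genes with 2 values per sample (14 columns): a normalized count, which is a signal per gene (the estimated count divided by a size factor of unstated method), and an FPKM value. The deposited FPKM differed by at most 0.284% from values recomputed from the normalized counts and gene widths. The GC content is deposited as a fraction and was not used, nor were the authors' columns of fold changes, p-values, FDR, detection and clusters. Whether counting used the strand is not given in the sources used here.

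Because the table holds no raw counts, the main test was limma-trend (limma 3.58.1, R 4.3.3) on log2(FPKM + 0.5) with genotype as the only term, for 13866 genes with at least 0.5 FPKM in at least 3 samples, with Benjamini-Hochberg adjustment and a threshold of 0.05. The study itself used the generalized linear model of edgeR. The fit was also run on simulated data with the same spread setting for every gene, which says nothing on the spread between these mice. Reads recovered from the normalized counts, of which 73.7% to 79.6% of the values from 0.5 to 10 reads were whole within 0.025 read, were used for depth and for edgeR 4.0.16 and DESeq2 1.42.0, both added after the data were seen. Replicates differed by more than sampling noise, with a median chi-square per gene of 2.08 to 5.73. Each sample is a mouse, so p-values measure the spread between these mice.

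Deviations from the group means had correlations of 0.168 to 0.409 in 3 pairs of same-numbered CT and cMU samples. Between different numbers the correlations ran from -0.353 to 0.205. These ranges overlap and do not settle whether the numbers mark pairs, so the number was used as a blocking term only in a further fit. Control sample 4 has no partner and does not enter the genotype difference of that fit.

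The 10 genes and all lists were chosen with earlier results of these data known. The text names Fasn, the 10 genes, list genes past the threshold, the 3 most abundant tested genes of each list, the tested genes within 500 kb of Birc2 and the 5 genes most correlated with Birc2. Other list genes are named to account for the rest of a list or as overlapping neighbors, and Cflar, Ripk1, Tnfrsf1b, Traf5, Birc5 and Spata2 were singled out after their values were seen. Coordinates are those of the deposited table, except for sequences, which were read from GENCODE M21 and RefSeq on GRCm38. The ends of Xiap and Nfkb2 in the table differ from M21.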

Additional observations from a re-analysis of the deposited data

Results flagged for a closer look

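Traf5 in control sample 3 stood at 1.742 FPKM, apart from the other 3 controls, which lay between 1.56 and 1.58, by a gap that was large for the range of the group. Of 46 genes checked in this way it was the only one, and chance sets apart about 1 group in 20.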

How the results depend on the processing

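Birc2 was lower in cMU and past the threshold under all 17 alternatives, with a log2 difference of -0.84 to -0.72. Because Birc2 was chosen for its difference in these same samples, this describes only how its value depends on the processing. It is no separate evidence for the difference. Counts of calls depended far more on the setting, and the cause was not tested. Over all genes, 175 higher and 188 lower calls became 33 and 62 without a filter on low values, 16 and 41 without a trend in the variance model, and 1 to 565 and 4 to 344 with 1 sample left out. With the replicate block there were 890 higher and 269 lower calls, and with normalized counts 103 and 267. Centering gave 117 higher and 283 lower, edgeR 163 and 238, and DESeq2 933 and 775. Among the 10 genes, DESeq2 alone called 1 higher, Traf3. Among other pathway genes, 1 higher and 1 lower call became 0 and 0 without the filter or the trend, 0 to 3 and 0 to 2 with 1 sample left out, 3 and 3 with the replicate block, 0 and 2 with normalized counts or edgeR, and 5 and 5 with DESeq2. Centering gave 3 lower. The 2 calls near Birc2 became 0 without the filter or the trend and 0 to 2 with 1 sample left out. The replicate block changed the calls of Otud7b, Peli1, Tnfrsf1a and Cflar, and of none of the 10 genes.

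Signs near 0 turned. Birc6 reached -0.0369 with centering, -0.0319 with normalized counts, -0.0058 with edgeR, -0.0037 with DESeq2 and -0.0124 to 0.0964 with 1 sample left out. Traf2 reached -0.0783 with centering, -0.0736 with normalized counts, -0.0437 with edgeR, -0.0401 with DESeq2, -0.0069 with the replicate block and -0.0469 to 0.0442 with 1 sample left out. Nfkb2 reached 0.0411 with the replicate block and ran from -0.0860 to 0.0411 with 1 sample left out, as did Tnfrsf12a from -0.0581 to 0.0757, Cxcl12 from -0.155 to 0.102 and Sod2 from -0.0374 to 0.0220. Depth limits mainly Relb, Map3k14 and Birc3.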
